A study of Mus musculus with 20 samples.

Results

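The heart of λS-DH mice, which carry a human lambda light chain gene, was compared with the heart of DH mice, which do not. The carriers were pooled whether or not their heart held amyloid deposits, as 7 mice with deposits (AL1 to AL7) and 4 mice without (LS1 to LS4), and the controls were 4 DH mice (Ctrl1 to Ctrl4). These 15 of the 20 mice of the study were sequenced in the first run and were chosen by their group and run, not by any expression value. The other 5 mice, 2 AL and 3 Ctrl, formed a second run and were used as separate mice. The λS-DH mice are homozygous for the cDNA of a patient's amyloidogenic lambda light chain, the λS-LC. This cDNA was targeted into the Ig kappa locus in embryonic stem cells and replaces the mouse Jκ segments. By the paper's methods, the stem cells came from another mouse strain than the blastocysts into which they were injected. All groups share the DH-LMP2A background, in which B cells mature and plasma cells are numerous without immunoglobulin heavy chains, so the control mice secrete mouse free kappa chains and the carriers secrete the human chain. AL mice had been injected with the recombinant variable domain of the same chain, as fibrils or as soluble protein, whereas LS mice had not been induced and were amyloid negative. The mice were adults of both sexes and the DH mice were age-matched. The carriers are 1 targeted line, so the light chain and the stretch of chromosome that was targeted with it cannot be told apart. Whether this stretch kept sequence of the stem cell strain in the carriers was not tested. The comparison asks what the heart of a carrier shares with or without deposits.
In AL amyloidosis a plasma cell clone secretes a light chain that misfolds and is deposited in the heart as fibrils, and the soluble chain itself has been held to harm cardiomyocytes. Light chains are made by plasma cells and reach the heart with the blood. A change of the heart seen in both AL and LS mice is found with the circulating chain, with or without deposits. It is found equally with the targeted stretch of chromosome. The heart answers wall stress with natriuretic peptides, injury with inflammatory and matrix genes, and a changed energy demand with genes of the respiratory chain.
Each library held 43993277 to 62668146 estimated counts, and 14288 genes were tested. Expression is given in CPM, the count scaled to a common library total, and log2FC is the log2 fold change from edgeR's quasi-likelihood test, positive where carriers were higher. FDR is its Benjamini-Hochberg adjusted p over all tested genes. Calls required an FDR below 0.05 and a log2FC of 0.58 or more in either direction. By Xist and Y-linked genes, 3 AL, 2 LS and 3 Ctrl mice had female-type expression and the other 7 had male-type expression. Liver genes stood apart between the groups. Albumin was at 89.8 to 207 CPM in Ctrl1, Ctrl3, Ctrl4, LS1 and LS3 and at most 21.1 CPM in the other 10 mice, and the mean level of 26 liver genes was lower in carriers by 3.23 on the log2 CPM scale (exact permutation test, two-sided, p = 0.0103, adjusted p = 0.0206 over 6 library measures).

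The mouse kappa constant gene Igkc lies in the targeted locus (chromosome 6, 70726435 to 70726966 on GRCm38) and served as a check of the labels. The cassette replaces the Jκ segments of this locus, so lower mouse kappa counts in carriers follow from the construct. Igkc separated carriers from controls in the first run. AL1 to AL7 had 0, 2, 4, 2, 6, 3 and 2 Igkc counts, and LS1 to LS4 had 4, 2, 1 and 0. Ctrl1 to Ctrl4 had 8, 274, 22 and 30 counts. All these carriers were below all these controls, though Ctrl1 was only 2 counts above AL5. In the second run, at a lower depth, AL8, AL9 and Ctrl5 had 0 counts, and Ctrl6 and Ctrl7 had 6 and 5. The 11 carriers held 26 Igkc counts in total and the 4 controls 334, and the difference in log2 (CPM + 0.01) was -4.00 (exact permutation test over 1365 splits, two-sided, p = 0.000733, the smallest these group sizes can give, adjusted p = 0.0044). Summed over all 166 kappa genes, carriers had 2 to 55 counts and controls 41 to 484 (exact permutation p = 0.00147, adjusted p = 0.00441), and LS1, with 55, lay above Ctrl3, with 41. The human transgene was not analysed here, since the reference was the mouse genome. Of the mouse lambda genes, 3 had enough counts to be tested and 0 passed the quasi-likelihood test. Iglv1 had 0 counts in 5 of the 7 AL mice and at most 0.0408 CPM in the others, 0.0555 to 0.251 CPM in LS mice and 0.168 to 0.774 CPM in Ctrl mice, with a log2FC of -3.20 (FDR = 0.176). Iglc1 had a log2FC of -1.04, with -2.25 in AL and -0.04 in LS mice, and Iglc2 one of 0.17, with 0.21 and 0.06.

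In carriers against Ctrl, 3 of the 14288 tested genes were called (0.0210%). Osbpl3 rose (1 gene, 0.00700%), and Pyurf and Slc37a3 fell (2 genes, 0.0140%). All 3 lie on chromosome 6, the chromosome of the targeted locus, and in each of them all 11 carriers lay beyond all 4 controls. Pyurf encodes a small mitochondrial protein that takes part in coenzyme Q synthesis and complex I assembly, Osbpl3 a lipid transfer protein of membrane contact sites, and Slc37a3 a membrane transporter of the sugar phosphate exchanger family. Their promoters are printed to show the genes that set carriers apart, from 250 bases before to 50 bases after the annotated start. They come from RefSeq on GRCm38.p6, all on the minus strand, and capitals mark each GC box (GGGCGG or its reverse CCGCCC) and each CCAAT box (CCAAT or its reverse ATTGG).
Pyurf, chr6:57692029-57692328: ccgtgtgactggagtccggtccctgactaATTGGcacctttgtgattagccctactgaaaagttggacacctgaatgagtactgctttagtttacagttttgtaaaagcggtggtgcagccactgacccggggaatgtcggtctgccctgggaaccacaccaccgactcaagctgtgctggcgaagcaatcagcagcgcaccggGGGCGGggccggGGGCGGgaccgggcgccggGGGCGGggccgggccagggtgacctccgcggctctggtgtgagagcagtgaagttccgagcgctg
Osbpl3, chr6:50456121-50456420: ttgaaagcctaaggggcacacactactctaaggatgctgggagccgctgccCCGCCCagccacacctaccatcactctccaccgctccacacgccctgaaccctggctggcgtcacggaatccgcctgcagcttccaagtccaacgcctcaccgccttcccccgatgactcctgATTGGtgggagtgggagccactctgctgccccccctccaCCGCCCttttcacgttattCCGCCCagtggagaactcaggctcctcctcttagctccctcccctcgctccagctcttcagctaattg
Slc37a3, first of 2 listed starts, chr6:39377658-39377957: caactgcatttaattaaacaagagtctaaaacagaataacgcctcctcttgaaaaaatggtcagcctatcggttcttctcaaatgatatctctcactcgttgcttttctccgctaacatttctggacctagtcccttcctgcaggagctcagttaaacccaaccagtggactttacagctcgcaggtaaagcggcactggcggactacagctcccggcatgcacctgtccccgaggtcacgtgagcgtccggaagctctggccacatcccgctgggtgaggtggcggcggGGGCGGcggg
The Pyurf and Osbpl3 promoters each held 3 GC boxes and 1 CCAAT box, and the Slc37a3 promoter held 1 GC box and no CCAAT box. None of the 3 held the letters of the TATA box (TATAAA or TTTATA). Over all 32851 RefSeq promoters of this length, 35.7% held a GC box, 37.4% a CCAAT box and 13.6% a TATA box, so the gene that rose and one of the genes that fell share the same common letters. Their GC content was 62.7%, 62.0% and 54.0%, against a median of 52.7% over all promoters. At the second listed start of Slc37a3, which is not printed, it was 74.0%.

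Pyurf (ENSMUSG00000043162, chromosome 6, 57686576 to 57692078) was at 15.3, 13.3, 15.1, 13.9, 14.4, 15.8 and 18.5 CPM in AL1 to AL7 and at 14.3, 13.7, 13.6 and 14.9 CPM in LS1 to LS4. In Ctrl1 to Ctrl4 it was at 32.7, 33.1, 39.9 and 40.01 CPM. Carriers of both kinds held the same narrow range, and the highest of them, AL7, stayed well under the lowest control. The log2FC was -1.30 (SE 0.0781, FDR = 2.83e-07), with controls 2.46-fold above carriers by mean CPM. AL against Ctrl gave -1.26 and LS against Ctrl -1.37, and AL and LS did not differ by the test (FDR = 0.369). Pyurf shares its strand and part of its position with 2 annotated genes, Gm37397 and the pseudogene Gm26712, neither of which was among the tested genes.
Osbpl3 (ENSMUSG00000029822, chromosome 6, 50293330 to 50456201) was at 36.5 CPM in the lowest, 43.5 CPM in the median and 50.01 CPM in the highest AL mouse. It was at 60.6, 59.0, 62.0 and 51.3 CPM in LS1 to LS4, and at 20.6, 17.6, 20.3 and 22.6 CPM in Ctrl1 to Ctrl4. All LS mice were above all AL mice, and all AL mice above all controls. The log2FC was 1.27 (SE 0.139, FDR = 7.02e-04), with carriers 2.42-fold above controls. The rise was 1.11 in AL and 1.52 in LS mice, and the difference between them passed the test (AL minus LS -0.41, FDR = 0.00415), at a size below the log2FC required for a call; between AL and LS 32.5% of all genes had an FDR below 0.05 and 11.5% were called.
Slc37a3 (ENSMUSG00000029924, chromosome 6, 39334773 to 39377675) was at 2.89, 2.81, 2.20, 2.45, 2.57, 2.63 and 2.32 CPM in AL1 to AL7 and at 10.7, 2.36, 2.08 and 2.22 CPM in LS1 to LS4. In Ctrl1 to Ctrl4 it was at 17.6, 15.7, 17.8 and 16.04 CPM. LS1 stood between the other carriers and the controls, although it lay within the range of the other LS mice for Osbpl3 and Pyurf. The log2FC was -2.39 (SE 0.339, FDR = 0.0136), with controls 5.26-fold above carriers, and without LS1 it was -2.77 (FDR = 5.52e-11). AL against Ctrl gave -2.72 (FDR = 6.16e-04) and LS against Ctrl -1.96, which did not pass (FDR = 0.501). The call was lost without Ctrl3 (FDR = 0.0544), without Ctrl4 (FDR = 0.0604) with the replicate number as a block (log2FC -2.50, FDR = 0.0938) and with the liver gene level, which is lower in carriers, as a covariate (log2FC -1.75, FDR = 0.587).

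**Figure D1:**
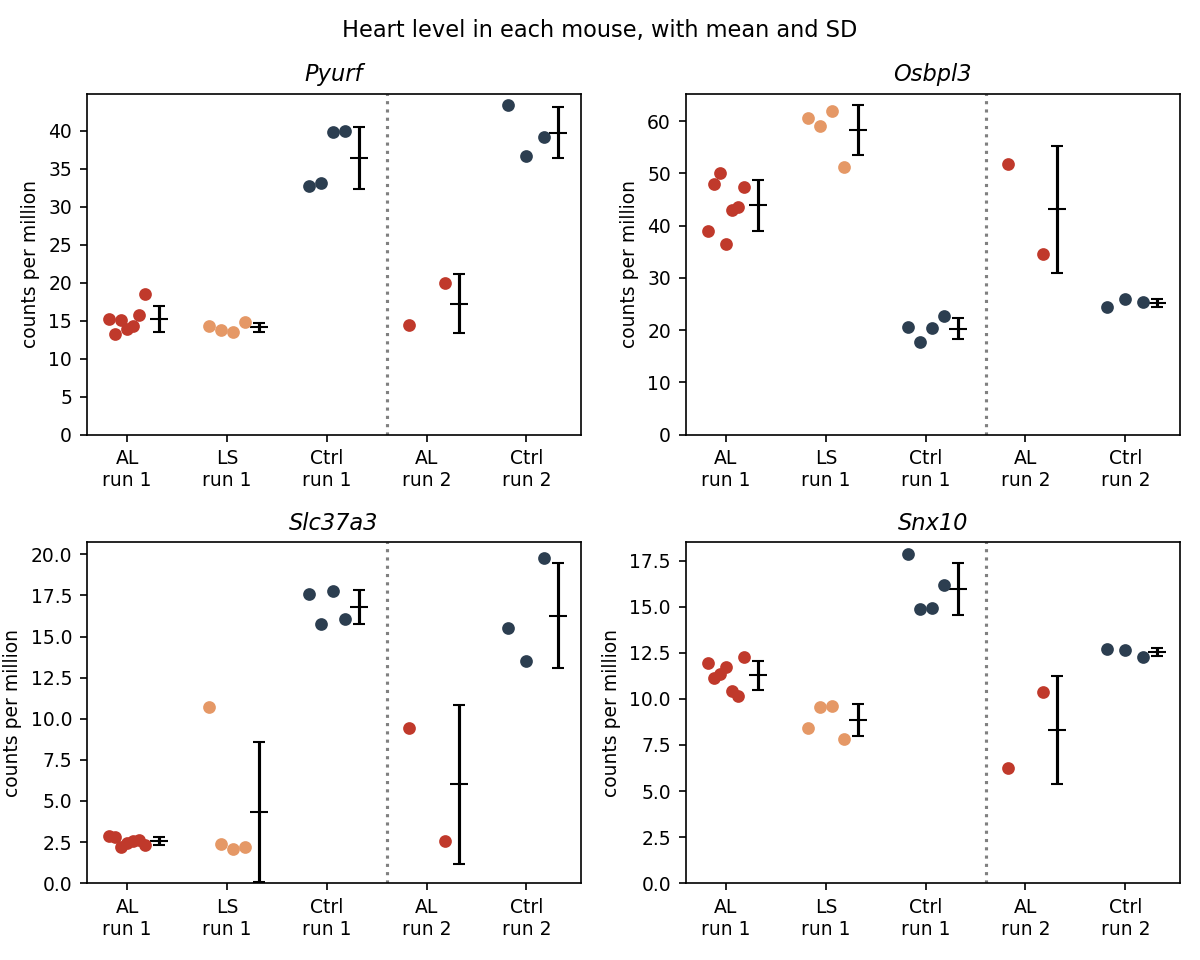
Level of Pyurf, Osbpl3, Slc37a3 and Snx10 in the heart of each mouse, in CPM, with the mean and SD beside each group; the dotted line parts the 2 runs, which were normalized separately. In run 1 every carrier lies beyond every Ctrl mouse for all 4 genes, and LS1 (10.7 CPM) stands apart from the other carriers for Slc37a3.

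The mice of the second run were sequenced to a lower depth of 7867642 to 11794615 counts and share no mouse with the first run. Pyurf was at 14.5 and 19.99 CPM in AL8 and AL9 and at 43.4, 36.7 and 39.1 CPM in Ctrl5 to Ctrl7. Osbpl3 was at 51.7 and 34.5 CPM in the AL mice and at 24.4, 25.98 and 25.3 CPM in the controls. Slc37a3 was at 9.44 and 2.57 CPM in AL8 and AL9 and at 15.5, 13.5 and 19.8 CPM in the controls. The AL mice lay beyond the controls on the side of the first run for all 3 genes, where 33.2% of all genes did not overlap between 2 and 3 mice. The log2FC was -1.20, 0.77 and -1.46, and none passed the quasi-likelihood test in these 5 mice (FDR = 0.138, 0.256 and 0.310), in which 16 of 12496 genes were called (0.128%).

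The 3 called genes lie on the same side of Igkc. The nearer end of each gene is 13.03 Mb (Pyurf), 20.3 Mb (Osbpl3) and 31.3 Mb (Slc37a3) before the start of Igkc. Between Slc37a3 and Igkc lie 2 more genes whose carriers and controls did not overlap, Snx10 and Lancl2, and both were lower in carriers. Snx10 (19.1 Mb before Igkc) encodes a sorting nexin of endosomes. Snx10 was at 10.1 to 12.3 CPM in AL mice, at 7.80 to 9.60 CPM in LS mice and at 14.9 to 17.9 CPM in Ctrl mice. The 3 groups did not overlap, with LS mice the lowest, and its log2FC was -0.50 in AL and -0.85 in LS mice (AL minus LS 0.35, FDR = 0.00458). Over all carriers Snx10 had a log2FC of -0.62 and missed the FDR threshold (FDR = 0.0886). In the second run it was at 6.25 and 10.4 CPM in the AL mice and at 12.3 to 12.7 CPM in the controls. Lancl2 (chromosome 6, 57702540 to 57739439), a member of the lanthionine synthetase C-like family, is the neighbour of Pyurf. It was at 4.54 to 9.06 CPM in carriers and at 9.12 to 10.4 CPM in controls, with a log2FC of -0.54 that did not pass (FDR = 0.228) and that was -0.72 in AL and -0.27 in LS mice.
Within 25 Mb of Igkc, 253 genes were tested and 2 were called. Of these genes, 20.2% had an unadjusted p under 0.05, against 14.1% of all genes with a position, and 4 of 253 had no overlap between carriers and controls (1.58%, against 0.879%). The 4 lay among the 98 genes before Igkc (4.08%), and were Pyurf, Osbpl3, Snx10 and Lancl2. Of the 155 genes after Igkc 0 were without overlap, and 31 had an unadjusted p under 0.05 by the same quasi-likelihood test. Around Ighm on chromosome 12, which is altered in carriers and controls alike, 26 of 153 genes had an unadjusted p under 0.05 and 1 had no overlap. Chromosome 6 as a whole held 9 genes without overlap among 716 tested (1.26%). Beside the 5 genes named they were Ntf3, Alox5, Ndufa5 and Strip2. The genes of the chromosome that were not called were picked out after their values were seen.

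**Figure D2:**
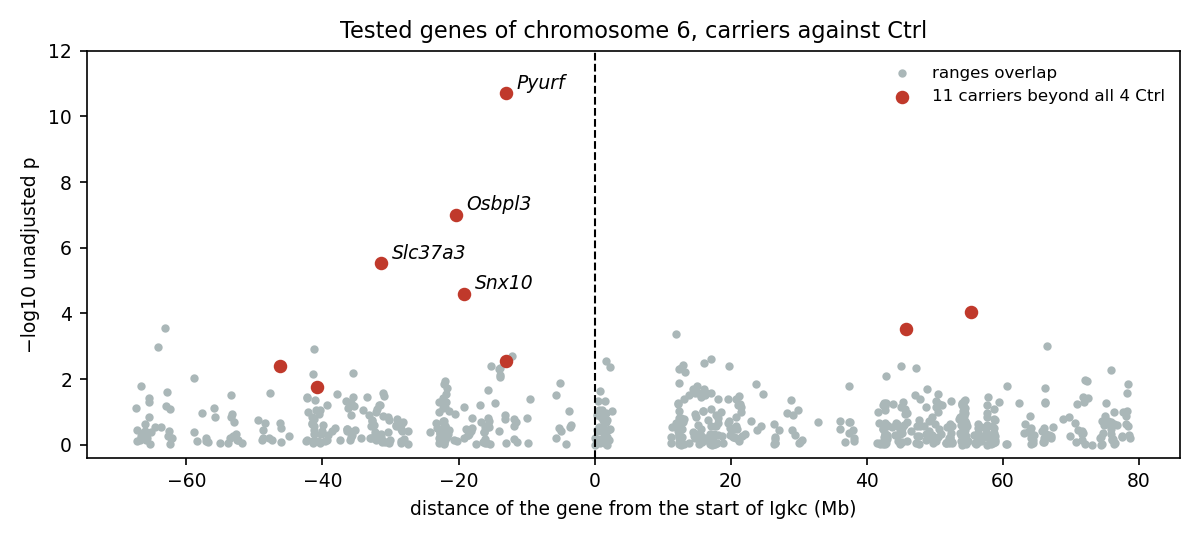
Unadjusted p of carriers against Ctrl (minus log10) for each tested gene of chromosome 6, by its distance from the start of Igkc in Mb (dashed line). Red points are genes whose 11 carriers lie beyond all 4 Ctrl mice, and the 4 with the smallest p, Pyurf, Osbpl3, Slc37a3 and Snx10, all lie before Igkc.

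To ask for genes that moved in both carrier groups, the larger of the p-values for AL and for LS against Ctrl was taken where both had the same sign. AL and LS are set against the same 4 Ctrl mice here, so the tests are not independent of each other. With an absolute log2FC of at least 0.58 in both, 2 genes were called (0.0140%), Pyurf (FDR = 7.32e-06 by the larger quasi-likelihood p) and Osbpl3 (FDR = 4.44e-05). Snx10 passed the same FDR threshold (FDR = 0.0414) with a log2FC in AL mice short of 0.58. LS mice alone differed from Ctrl in these 3 genes (0.0210%), whereas AL mice differed in 1117 genes (7.82%). Where AL and LS were weighted equally instead of by mouse, 23 genes were called (0.161%), Pyurf, Osbpl3, Slc37a3 and Snx10 among them. Several of the others had their difference in AL mice, such as Stbd1, a glycogen binding protein, with a log2FC of -4.55 in AL and -0.40 in LS mice (AL minus LS FDR = 1.98e-08).

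With the 3 called genes, 124 genes (0.868%) had no overlap, with 72 higher (0.504%) and 52 lower (0.364%) in all 11 carriers than in all 4 controls. Their median absolute log2FC was 0.31, so most were small differences between tight groups, and 31 of them differed between AL and LS mice at an FDR below 0.05, as did 32.5% of all genes. Of the 124, 25 had a log2FC of at least 0.58 in size and a mean of at least 1 CPM, of which 9 were higher and 16 lower. The 22 that were not called were picked out after their values were seen, and their log2FC did not pass the test over all genes.
The largest of them was Gcnt1, the enzyme that starts core 2 branches on O-linked glycans. It was at 9.98 to 34.2 CPM in AL mice, at 19.2 to 35.5 CPM in LS mice and at 3.91 to 9.01 CPM in Ctrl mice, 3.42-fold higher in carriers (log2FC 1.78, SE 0.363, FDR = 0.121). In the second run AL8 was at 3.59 CPM, within the controls at 3.45 to 6.03 CPM, and AL9 was at 11.9 CPM. Ntf3, a neurotrophin, was at 1.55 to 2.40 CPM in carriers and 0.866 to 1.22 CPM in controls, and Dach1, a transcription cofactor, at 8.10 to 11.9 CPM and 3.94 to 7.35 CPM. Both had the opposite sign in the second run (log2FC -0.23 and -1.34). Adamts6, a matrix protease, was at 2.73 CPM or more in carriers and 2.10 to 2.57 CPM in controls, with a log2FC of 0.97 in AL and 0.37 in LS mice. Lower in carriers were Alox5, the enzyme that starts leukotriene synthesis (log2FC -0.81, FDR = 0.123), and Acsm5, a mitochondrial acyl-CoA synthetase (-0.99, FDR = 0.185), as well as Cox8a, a subunit of cytochrome c oxidase (-0.79, FDR = 0.121). Cox8a lay higher in the AL mice of the second run (log2FC 0.58), whereas Acsm5 lay lower (-1.25).
Of the 120 genes without overlap that were also tested in the second run, 92 (76.7%) had the same sign there, against 64.9% of all 12480 genes tested in both, and 37 of the 120 (30.8%) again had no overlap with the same sign, against 24.8%. Over all 20 mice, without any adjustment for the run, 7 of 14477 genes (0.0484%) separated the 13 carriers from the 7 controls. These were Pyurf, Osbpl3, Slc37a3, Ppcdc, Meig1, Pcdhb16 and Bola2, with TMM factors from the tested genes. The CPM that follow used TMM factors from all genes with any counts. On that scale Bola2 overlapped, with AL8 at 6.33 CPM and Ctrl4 at 6.42 CPM, so its separation depended on the scaling. Ppcdc, an enzyme of coenzyme A synthesis, was at 9.04 to 12.3 CPM in the carriers of the first run and at 6.13 to 8.76 CPM in its controls, and at 10.7 and 14.0 CPM in AL9 and AL8 against 7.39 to 8.27 CPM in Ctrl5 to Ctrl7. Meig1, a gene known from meiosis, was at 0.175 to 0.474 CPM in the carriers of the first run and at 0.709 to 1.80 CPM in its controls, and at 0.117 and 0.337 CPM against 0.837 to 1.18 CPM in the second run. In the first run alone neither passed the test (log2FC 0.56 and -1.69, FDR = 0.0886 for both). In a fit of all 20 mice with the run as a term, both passed (log2FC 0.59, FDR = 0.00447, and -1.76, FDR = 0.00595) among 27 called genes (0.187%), of which 6 were on chromosome 6 and 21 were lower in carriers.

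Among 46 lists of gene families, pathways and cell type markers with at least 3 tested genes, no member of a list was called by edgeR's quasi-likelihood test of carriers against Ctrl. Some were called under other settings, such as Rpl26 with equal weights for AL and LS, with an offset for transcript length and without Ctrl1, and Iglv1 with equal weights and without LS1. The lists are described by their medians and by how many members had an unadjusted p under 0.05, which 7.50% of all tested genes had on the higher side and 6.46% on the lower side. The median log2FC of all genes was 0.00 in carriers, 0.01 in AL and -0.01 in LS mice.
The cytosolic ribosomal protein genes, which encode the protein part of the ribosome, were the list with the most members of one direction. Of 79 tested genes, 59 had an unadjusted quasi-likelihood p under 0.05 on the higher side and 1 on the lower side, Rps3a1. The median log2FC was 0.23, with 0.26 in AL and 0.16 in LS mice, and 76 were above 0 in AL and 74 in LS mice against the same controls. Of the list 5 genes were higher in all carriers than in all controls, against 0.504% of all genes. By the FDR of edgeR's test 0 passed (lowest 0.0886, Rpl26), and with DESeq2 7 ribosomal protein genes, 5 respiratory chain genes and 1 proteasome gene had an FDR below 0.05. The mean log2 CPM of the list was 7.29 to 7.66 in AL mice, 7.27 to 7.54 in LS mice and 7.19 to 7.33 in Ctrl mice, so AL2 and LS4 lay among the controls. Rpl26 was at 195 to 261 CPM in carriers and at 118 to 189 CPM in controls (log2FC 0.61, SE 0.107), and Rps26 at 57.1 to 71.8 CPM and 47.9 to 56.1 CPM (log2FC 0.29, SE 0.0628). In the second run, 78 of the 79 genes were higher in AL mice, with a median of 0.41. Ribosomal protein genes have many processed pseudogenes, among which reads can be split, so the values of single members are uncertain.
Of 77 tested gene IDs for nuclear subunits of the respiratory chain and ATP synthase, which make ATP in mitochondria, 39 had an unadjusted p under 0.05 on the higher side and 2 on the lower side, Cox5b and Ndufb2. The median log2FC was 0.14, with 0.11 in AL and 0.16 in LS mice. Ndufb9 of complex I was at 344 to 421 CPM in carriers and at 306 to 326 CPM in controls (log2FC 0.23, SE 0.0573, FDR = 0.194), and Atp5o of ATP synthase at 605 to 732 CPM and 549 to 586 CPM (log2FC 0.19, FDR = 0.228). Of these genes 7 were higher in all carriers than in all controls, against 0.504% of all genes, and 0 were lower in all carriers. The list does not hold Cox8a, a nuclear subunit of cytochrome c oxidase. Cox8a was lower in all carriers than in all controls (log2FC -0.79, FDR = 0.121), a larger difference than those of Ndufb9 and Atp5o. The 15 genes encoded by the mitochondrial genome had a median of -0.12 in AL and 0.19 in LS mice. In the second run, 58 of the 77 were higher in AL mice (median 0.14). Of 30 proteasome genes, 8 had an unadjusted p under 0.05 on the higher side and 0 on the lower side, with a median of 0.07, and Psma7, Psmc5 and Psmd4 were higher in all carriers than in all controls, against 0.504% of all genes. Without Ctrl2 the 8 proteasome genes became 2, where 5.87% of all genes had such a p, and with all 20 mice the median was 0.01.

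**Figure D3:**
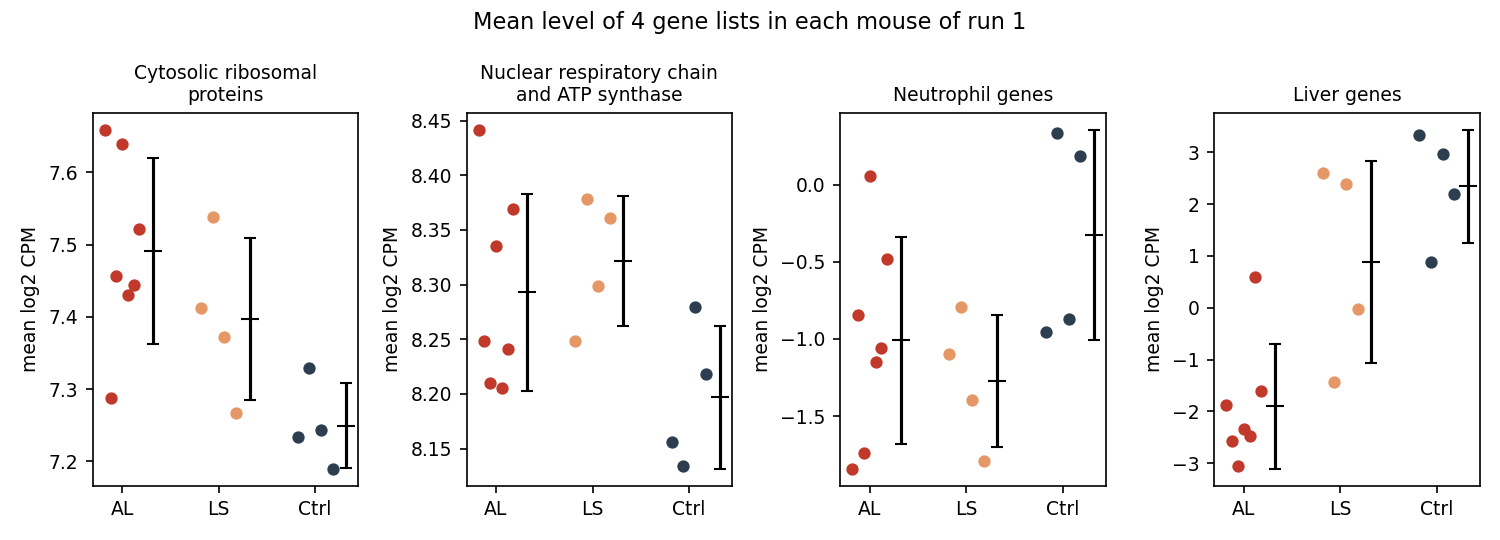
Mean log2 CPM over the tested genes of 4 lists in each mouse of run 1, with the mean and SD beside each group. Ribosomal protein genes lie at 7.27 to 7.66 in carriers and 7.19 to 7.33 in Ctrl mice, and for liver genes all AL mice lie at or below 0.60 and all Ctrl mice at or above 0.87.

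The liver gene level moved with these counts. With it as a covariate, 4 ribosomal protein genes and 8 respiratory chain genes had an unadjusted p under 0.05 on the higher side, where 2.00% of all genes did so, with medians of 0.14 and 0.14. Without the 5 mice of highest albumin level, which leaves Ctrl2 as the only control, 1 and 9 genes did so, against 3.97% of all genes, with medians of 0.17 and 0.21. Transcript length moved with the direction as well. Ribosomal protein genes had a median exon length of 1770 bases and respiratory chain genes of 1697 bases, against 4415 bases over all genes. Among the fifth of all genes with the shortest exon length (up to 2437 bases), log2FC had a median of 0.12 in AL and 0.01 in LS mice, and among the fifth with the longest (from 7602 bases) of -0.11 and -0.01. In AL mice of the second run the same medians were 0.19 and -0.11, so the respiratory chain median there lay below that of short genes in general. The shortest genes held 43 of the 72 genes that were higher without overlap and the longest 20 of the 52 that were lower. With an offset for length fitted in each mouse, 57 ribosomal protein genes and 30 respiratory chain genes had an unadjusted p under 0.05 on the higher side, against 9.96% of all genes, with medians of 0.23 and 0.15. These settings were chosen after the data were seen, except for the liver covariate.

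Natriuretic peptide genes, which the heart switches on under wall stress, were higher in most carriers without passing the test over all genes. Nppa was at 244 CPM in the lowest, 425 in the median and 816 in the highest AL mouse. It was at 203, 261, 378 and 83.5 CPM in LS1 to LS4 and at 102, 42.9, 54.5 and 132 CPM in Ctrl1 to Ctrl4. All AL mice and 3 of the 4 LS mice lay above all controls, and LS4 lay among them. The log2FC was 2.26 in carriers (SE 0.518, FDR = 0.160), 2.57 in AL (FDR = 0.00276) and 1.48 in LS mice (FDR = 0.575), and the difference between AL and LS did not pass the test (FDR = 0.0648). Nppb was at 65.7 to 390 CPM in AL mice, at 157, 223, 232 and 136 CPM in LS1 to LS4 and at 135, 25.2, 90.4 and 111 CPM in Ctrl1 to Ctrl4. All 4 LS mice were above all controls, LS4 and Ctrl1 by less than 1 CPM, and AL2 was below 3 of the controls. Its log2FC was 1.16 (SE 0.441, FDR = 0.280), with 1.23 in AL and 1.05 in LS mice. In the second run Nppa was at 153 and 1103 CPM in AL8 and AL9 and at 82.0, 4.26 and 133 CPM in Ctrl5 to Ctrl7. Of 18 genes of hypertrophy and natriuretic signalling, 4 had an unadjusted p under 0.05 on the higher side (Nppa, Nppb, Nmrk2 and Ankrd1) and 0 on the lower side. Nmrk2, a nicotinamide riboside kinase, differed between AL and LS mice, with a log2FC of 2.45 in AL and 0.36 in LS mice (AL minus LS FDR = 0.0115). The atrial light chain gene Myl7 had a log2FC of 2.07 at a mean of 0.473 CPM, and the other 7 genes of the list of atrial and conduction genes, Nppa left out, had an unadjusted p above 0.05.
Liver, erythroid and neutrophil markers had medians below 0 in both carrier groups, as had NK cell markers (-0.20 in AL and -0.66 in LS mice). All 26 liver genes were lower in AL (median log2FC -4.21) and in LS mice (-0.75), and 8 of them had an unadjusted p under 0.05. This count was 2 without Ctrl1 or Ctrl3 and 22 without LS1 or LS3. All 9 erythroid genes, haemoglobins among them, were lower in both (medians -0.65 and -1.15), and 0 of them had an unadjusted quasi-likelihood p under 0.05 (lowest FDR 0.393). Ctrl2 held 2.00% of its counts in haemoglobin genes and the other controls 0.377 to 0.537%, and without Ctrl2 the erythroid medians were 0.29 in AL and -0.21 in LS mice. Of 9 neutrophil genes, 5 had an unadjusted p under 0.05 on the lower side, Retnlg, S100a8, S100a9, Mmp8 and Cxcr2, with medians of -1.08 in AL and -1.26 in LS mice. Without Ctrl4 0 of the 9 had such a quasi-likelihood p and the medians were -0.36 and -0.92, and with all 20 mice they were 0.17 and -0.68, again with 0. These genes were at a low level, with S100a9 at a mean of 2.44 CPM, and in the second run all 7 neutrophil genes and all 9 erythroid genes tested were higher in AL mice (medians 3.94 and 1.02). In whole tissue, fewer cells of a type and less RNA per cell cannot be told apart.
Several other lists had medians of opposite sign in AL and LS mice, so that the pooled value averaged unlike groups. Interferon-stimulated genes had a median log2FC of 1.43 in AL and -0.31 in LS mice, adipocyte genes 1.57 and -1.19, and class I antigen presentation genes 0.34 and -0.42. Genes of the unfolded protein and integrated stress response, which are set off by misfolded protein, had medians of 0.08 and 0.02, with 1 of 24 at an unadjusted p under 0.05 on the higher side and 2 on the lower side. Heat shock protein genes had medians of 0.02 and 0.07, and collagen genes -0.04 and 0.00. The 8 genes that the study names in its heart data, chosen by the study on these mice, had medians of 1.62 and 0.01, and 4 of them had an unadjusted p under 0.05 on the higher side. The 6 sex-linked genes had medians of 0.74 and 0.74, where the share of female-type mice differed between carriers and controls.

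**Figure D4:**
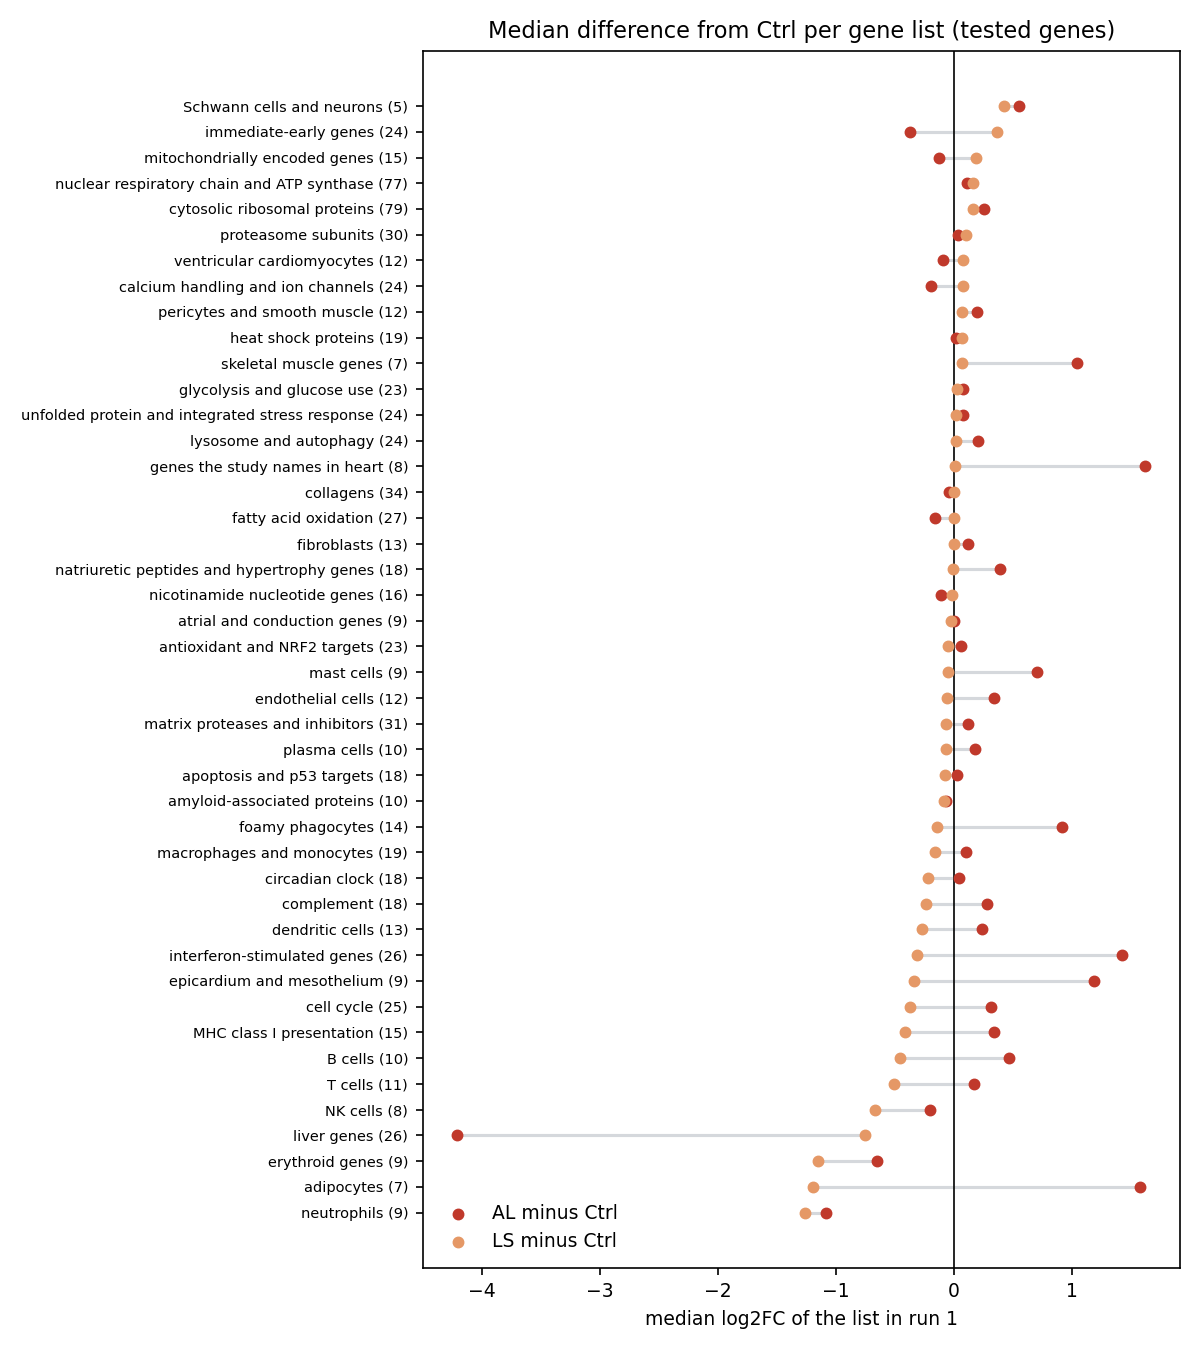
Median log2FC against Ctrl of each list with at least 5 tested genes except the sex-linked genes, in AL mice (red) and LS mice (orange). The number of tested genes is in brackets, and both groups use the same 4 Ctrl mice. Ribosomal protein and respiratory chain lists lie above 0 in both groups, liver, erythroid and neutrophil lists below 0, and interferon, adipocyte and class I lists on opposite sides.

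The nicotinamide nucleotide transhydrogenase gene Nnt, which is disrupted in some substrains of C57BL/6 mice, has 2 overlapping IDs in the annotation. ENSMUSG00000116207 was listed at 0 in all 4 Ctrl mice and in LS1, LS3 and LS4, at 13.5 CPM in LS2 and at 55.7 to 183 CPM in AL mice. ENSMUSG00000025453 was at 79.7 to 366 CPM in AL mice, 442 to 968 CPM in LS mice and 445 to 991 CPM in Ctrl mice. In the first run the LS mice lay nearer the controls than the AL mice did in both IDs, with LS2 above all 4 controls in the first ID. In the second run the first ID was at 585 and 181 CPM in the AL mice and at 55.01 to 290 CPM in the controls. Whether the groups differed in strain background was not tested.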

How the data were processed

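Heart apex RNA of 15 mice of the first sequencing run (7 AL, 4 LS, 4 Ctrl) and, separately, of 5 mice of the second was analysed. The authors prepared stranded libraries of polyadenylated RNA, aligned paired reads to GRCm38 with STAR and quantified genes with Salmon in the nf-core workflow. They deposited the estimated counts of 25308 genes, not normalized and not adjusted for the run, of which 14.2% are not whole numbers. These were rounded. filterByExpr of edgeR 4.0.16 (minimum count 10, by 3 groups) kept 14288 genes, TMM factors were used, and glmQLFit and glmQLFTest compared carriers with Ctrl and, in a second fit, AL, LS and Ctrl (R 4.3.3). Because carriers are 7 AL and 4 LS mice, the pooled log2FC weights AL more. Total counts of 43993277 to 62668146 set a floor of 3 counts at 0.0479 to 0.0682 CPM, for counting error only. Single values were tested by exact permutation over mice. P-values are two-sided. Libraries correlated at 0.936 to 0.979, and 0 pairs were identical. No label says more on how mice were housed or bred, so p-values set the group difference only against the spread between these mice.
Gene positions come from GENCODE M21 (98.8% of tested genes), and lengths are the union of a gene's exons. Promoters come from RefSeq. The comparison, the gene lists and the named genes were chosen with earlier results of these data known. Named are light chain genes, called genes, list members that were called, sex-linked genes, genes the study names and Nnt. 1 list of cell markers is not reported here. Genes without overlap, Stbd1 and list members given as examples were added after their values were seen. Sex-linked genes and those the study names, other than Nppa and Nppb, are given as lists. Alternatives were RLE factors, DESeq2 1.42.0, no filter, at least 10 counts in every mouse, each mouse left out, sex-type or liver level as a covariate, all 20 mice with the run as a term, the replicate number as a block, counts summed per symbol, equal weights for AL and LS, and other log2FC thresholds. An offset for transcript length and leaving out 5 mice rich in liver RNA were added after seeing the data. The tests were also applied to simulated counts with an equal spread for all genes and the same change in AL and LS mice. In these data AL and LS mice differ in many genes, so the simulation checks the code only. Figures were drawn with matplotlib 3.10.9.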

Additional observations from a re-analysis of the deposited data

Results flagged for a closer look

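In groups of 4 to 7 mice, a mouse stood apart where its gap to the nearest other mouse exceeded Dixon's 95% critical share of the group's range. This was so in 8 of 87 groups of values (9.2%). A rate of about 1 in 20 would hold by chance for independent, normally distributed values. Most of these genes were picked for having no overlap, and Igkc is also part of the sum of kappa genes. The share was therefore not tested against chance. Slc37a3 was at 10.7 CPM in LS1 and at 2.08 to 2.36 CPM in the other LS mice. Alox5 was at 4.35 CPM in LS1, below the other LS mice at 6.92 to 7.28 CPM, and at 3.22 CPM in AL5, below the other AL mice at 4.21 to 4.94 CPM. Ntf3 was at 2.40 CPM in AL3 and at 1.81 CPM in LS4, the highest of their groups. Btbd19 was at 2.66 CPM in AL1, with the other AL mice at 1.51 to 2.00 CPM. Igkc had 274 counts in Ctrl2 against 8 to 30 in the other controls, and all kappa genes together had 484 counts in Ctrl2 against 41 to 83.
Of 27 genes compared singly, 7 differed between AL and LS mice at an FDR below 0.05 by edgeR's quasi-likelihood test, as did 32.5% of all genes. With a log2FC of 0.58 or more as well, 3 of the 27 differed, against 11.5% of all genes. On the log2 scale, AL minus LS was -0.41 for Osbpl3 (FDR = 0.00415) and 0.35 for Snx10 (FDR = 0.00458), so the difference from Ctrl was larger in LS than in AL mice for both. It was -0.52 for Alox5 (FDR = 0.0160), 0.75 for Btbd19 (FDR = 0.00515), 0.60 for Adamts6 (FDR = 0.00882), -0.64 for Pcdhb16 (FDR = 0.00198) and -0.56 for Pole (FDR = 0.0359), with the larger difference from Ctrl in AL mice.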

How the results depend on the processing

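The 3 calls of carriers against Ctrl were also 3 with RLE factors, with at least 10 counts in every mouse, with counts summed per symbol and with no log2FC threshold or one of 1. They became 5 without a filter, 5 with sex-type as a covariate, 23 with equal weights for AL and LS, 27 with all 20 mice and the run as a term, 63 with DESeq2, and 16 without the 5 mice of highest albumin (1 control left, assumed to vary like the others). For both carrier groups, 2 calls became 6 with DESeq2 and 9 without those 5 mice. Leaving out 1 mouse gave 2 to 12 calls, the most without LS1, and 2 to 4 for both groups. It gave a log2 difference of -4.69 to -3.05 for Igkc (exact permutation p at most 0.00275) and of -3.72 to -2.90 for the liver gene level (exact permutation p at most 0.0302). Pyurf was called in all 27 alternatives (log2FC -1.35 to -1.14). Osbpl3 lost its call without the 5 mice (FDR = 0.0707) and with the replicate block (FDR = 0.0938). Of 27 genes fitted under these alternatives, 0 changed direction. Genes without overlap numbered 124 and rose to 129 to 296 with 1 mouse left out, since fewer mice need to separate; the highest was without Ctrl3. The lower depth of the second run and its 5 mice limit what it can call.
With the replicate number as a block, 1 gene was called, Pyurf. Deviations of same-numbered mice correlated at -0.157 to 0.241, and 3 of 12 pairs were over 0.1. Without differently numbered pairs beside them, these values cannot decide whether the numbers pair the mice.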
